A study of Mus musculus with 12 samples.

Results

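The mitochondrial ribosomal protein genes are the nuclear genes named Mrpl, for the large subunit, and Mrps, for the small subunit. They were taken as every gene of the array whose symbol starts with Mrpl or Mrps and a number, each read from its probe with the highest mean signal among probes detected at p under 0.01 on at least 6 of 12 arrays. The array's annotation held 76 such genes, and 73 were detected, among 9843 named genes detected in all. Of the 73, 46 were Mrpl and 27 were Mrps genes. The source was the whole heart of C57Bl/6 males, 8 weeks old, read on Illumina mouse beadchips. The exercised group had a running wheel for 7 days (6 samples) and the sedentary group did not run (6 samples), and no transgene or drug is named in the labels for either. Since the labels leave unstated if every sample came from its own mouse, the p-values cover the spread among these samples, which may be technical. Cells were not separated, so fewer cells of a type and less RNA per cell cannot be told apart.

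Mitochondria hold their own ribosome, which makes only the few respiratory chain subunits that mitochondrial DNA encodes. Its protein components are all encoded in the nucleus, made in the cytosol and imported, where they assemble with the mitochondrial ribosomal RNAs. Many descend from bacterial ribosomal proteins and others occur only in mitochondrial ribosomes. The heart depends on this machinery for its respiratory capacity, and in humans inherited defects of several of these genes, MRPL3, MRPL44 and MRPS22 among them, cause cardiomyopathy.

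Promoter sequence was examined because these genes are known targets of common nuclear regulators. The 4 promoters below belong to the members with the smallest p for exercised against sedentary hearts, Mrpl47, Mrps33, Mrpl42 and Mrpl27. Each runs from 250 bases before to 50 bases after the start site, 5′ to 3′ along the gene, from RefSeq on GRCm38.p6. They lie at chr3:32736706-32737005 on the minus strand, chr6:39810887-39811186 on the minus strand, chr10:95501900-95502199 on the minus strand and chr11:94653541-94653840 on the plus strand. Capitals mark matches on either strand to a palindromic core of the sites of nuclear respiratory factor 1, to CCGGAAG, a core of ETS factor sites such as those of GABP, or to AANATGGC, a core of YY1 sites.
Mrpl47: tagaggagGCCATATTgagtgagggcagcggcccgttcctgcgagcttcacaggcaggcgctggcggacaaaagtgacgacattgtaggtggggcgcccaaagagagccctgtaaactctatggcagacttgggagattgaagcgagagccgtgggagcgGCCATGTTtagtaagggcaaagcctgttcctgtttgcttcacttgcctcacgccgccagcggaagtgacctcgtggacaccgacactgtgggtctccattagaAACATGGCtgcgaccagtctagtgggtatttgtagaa
Mrps33: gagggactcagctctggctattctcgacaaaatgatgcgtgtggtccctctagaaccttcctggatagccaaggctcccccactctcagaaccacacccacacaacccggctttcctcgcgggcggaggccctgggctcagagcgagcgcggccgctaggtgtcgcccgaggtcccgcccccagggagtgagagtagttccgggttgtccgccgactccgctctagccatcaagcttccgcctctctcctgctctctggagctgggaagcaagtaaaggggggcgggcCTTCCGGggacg
Mrpl42: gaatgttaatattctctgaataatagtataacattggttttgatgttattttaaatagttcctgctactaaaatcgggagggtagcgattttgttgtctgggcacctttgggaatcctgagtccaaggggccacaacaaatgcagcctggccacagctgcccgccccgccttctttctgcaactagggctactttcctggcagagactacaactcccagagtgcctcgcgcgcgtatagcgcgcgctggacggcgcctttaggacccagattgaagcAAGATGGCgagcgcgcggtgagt
Mrpl27: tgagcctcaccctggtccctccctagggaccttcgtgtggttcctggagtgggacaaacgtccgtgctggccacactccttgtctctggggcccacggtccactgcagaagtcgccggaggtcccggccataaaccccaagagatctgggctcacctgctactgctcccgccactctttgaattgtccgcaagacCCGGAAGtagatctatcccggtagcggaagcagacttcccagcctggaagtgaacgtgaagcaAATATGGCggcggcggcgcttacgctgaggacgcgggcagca

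In Mrpl47 the letters AANATGGC occurred at bases -242 and -90 from the start site on the opposite strand and at base 14 on the gene's strand, counted at the first base of each match. Mrps33 held CCGGAAG on the opposite strand at base 39, and Mrpl42 held AANATGGC at base 28. Mrpl27 held CCGGAAG at base -55 and AANATGGC at base 9. A promoter was in the table for 65 of the 73 genes, with 71 windows. CCGGAAG was in 26 of these windows (36.6%), against 8.86% of all 32851 promoters of the same length. AANATGGC was in 20 (28.2%, against 6.05% of all) and the nuclear respiratory factor 1 core in 12 (16.9%, against 4.60% of all). In the 71 windows no match overlapped a match to another of the 3 motifs. A match is a run of letters and not a measured binding site.

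None of the 73 genes passed the threshold between exercised and sedentary hearts (limma, adjusted p under 0.05 over all genes), where 18 of the 9843 genes did (0.183%, made up of 0.163% lower and 0.0203% higher in exercised hearts). At an unadjusted p under 0.05 there were 9 members, all lower in exercised hearts, against 15.9% of all genes in either direction and 10.6% in the lower direction; the 9 make 12.3% of the members. This count was 5 without exercised replicate 2 or sedentary replicate 5, where 1205 and 1165 of the 9843 genes reached that p, against 1565 in the fit reported. It was 18, of which 14 were lower, without sedentary replicate 2, where 2526 of all genes reached it. The log2 difference, exercised minus sedentary, was negative in 55 of 73 genes, against 56.6% of all genes, and its median was -0.14, against -0.04 over all genes. Median scaling in place of quantile normalization turned this direction. It aligned the array medians over all 45281 probes, of which 17098 passed the detection filter. The median of all genes moved to 0.26 and that of the members to 0.19, 0.07 below it, with 64 of 73 positive. No member then had an unadjusted p under 0.05, where 432 of all genes did. Without exercised replicate 3 the members' median was -0.07. The differences ran from -0.55 for Mrpl20 to 0.39 for Mrpl45, with a median SE of 0.12. In 0 of the 73 genes did all 6 exercised arrays lie on one side of all 6 sedentary arrays, where 1.12% of all genes did.

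**Figure D1:**
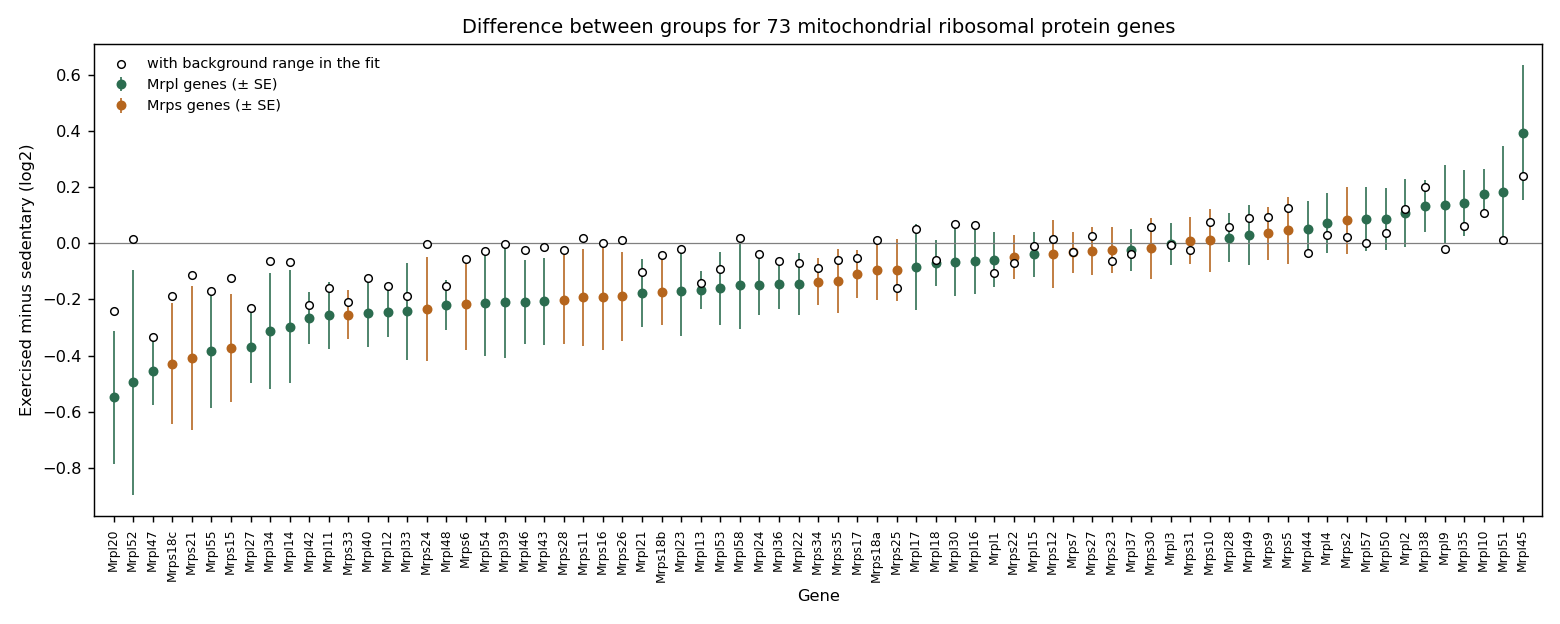
Log2 difference between exercised and sedentary hearts (y axis) for each of the 73 mitochondrial ribosomal protein genes (x axis), ordered by size, with SE bars and colour for Mrpl or Mrps. Open circles give the same difference with the background range of the arrays in the fit. Most filled points lie below 0, from -0.55 to 0.39 (under median scaling 64 of 73 lie above 0), and the open circles lie closer to 0 in 55 of 73 genes.

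The members' level moved together with the raw background of the arrays. Raw signal fell into 2 ranges: 8 arrays had medians between 48.6 and 53.3, and the other 4, exercised replicates 2, 3 and 6 and sedentary replicate 2, between 130.5 and 138.6. After normalization, the mean deviation of the 73 genes from their own 12-array means was -0.15, -0.27 and -0.23 (log2) in exercised replicates 2, 3 and 6 and -0.05 in sedentary replicate 2. It was 0.09, 0.14 and 0.06 in exercised replicates 1, 4 and 5. It was -0.01, 0.08, 0.13, 0.14 and 0.07 in sedentary replicates 1, 3, 4, 5 and 6. The 4 arrays of high background thus held the 4 lowest values of the 12. Over all arrays the exercised mean was -0.06 ± 0.18 and the sedentary mean 0.06 ± 0.08 (SD, n = 6), and the ranges overlapped.

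Within the 8 arrays of low background the mean deviations were 0.10 ± 0.04 (SD, n = 3) in exercised and 0.08 ± 0.06 (SD, n = 5) in sedentary hearts, and 44 of 73 differences were positive with a median of 0.03. The exercised arrays of this range, replicates 1, 4 and 5, had mean levels of hepatocyte markers of 10.65, 6.83 and 12.21. Sedentary arrays had 6.40 to 8.46. The part of liver transcripts in the differences within this range was not tested. Within the 4 arrays of high background the mean was -0.22 ± 0.06 (SD, n = 3) in exercised hearts and -0.05 in the single sedentary array, and 10 of 73 differences were positive with a median of -0.19. With the range as a block, 26 of 73 were positive and the median was -0.03, against -0.02 over all genes, where 54.8% of genes were negative. No member passed the threshold with the block, where 0.366% of all genes did, and the SE was 0.82 times as large (median over members).

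**Figure D2:**
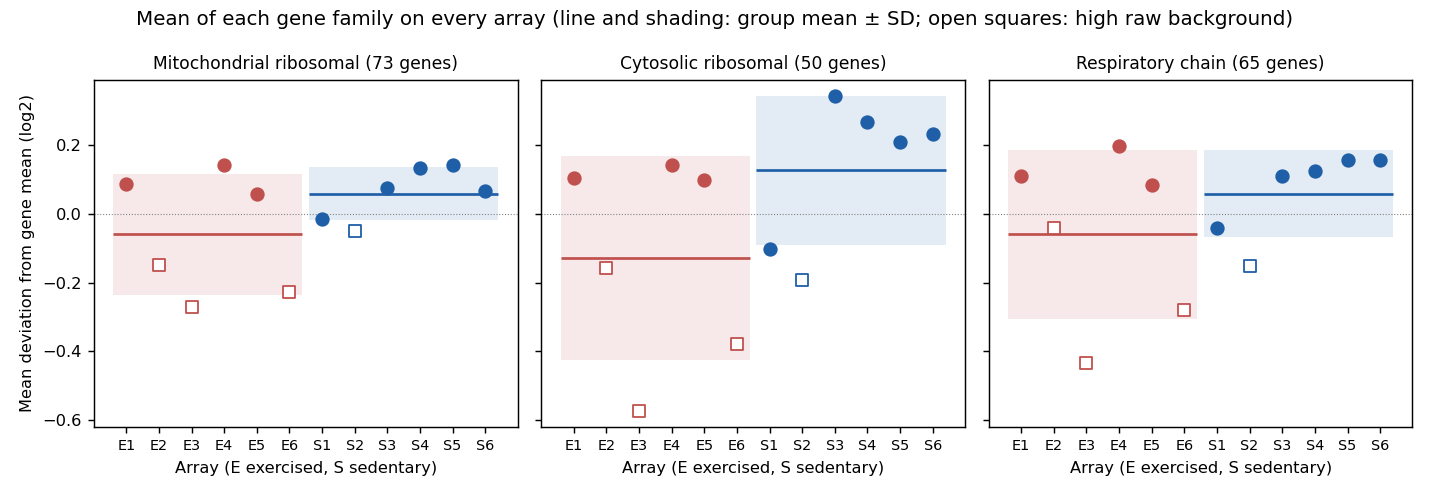
Mean log2 deviation from each gene's 12-array mean (y axis) on every array (x axis) for the mitochondrial ribosomal, cytosolic ribosomal and respiratory chain genes. Lines and shading give group means ± SD, and open squares mark the 4 arrays with high raw background, which hold the 4 lowest values of the mitochondrial ribosomal genes, from -0.27 to -0.05.

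Compared directly with the group in the fit, 32 of 73 members were lower on the arrays of high background and 4 were higher (limma, adjusted p under 0.05). Of all genes 20.0% were lower and 15.3% higher by this rule, 35.3% in all. Mrpl52, a protein found only in mitochondrial ribosomes, had the widest shift of the members, at -1.53 (adjusted p = 0.00018 in limma). Mrpl20, the counterpart of bacterial L20, was at -0.93, and Mrps21, the counterpart of bacterial S21, at -0.88. The 4 members that were higher on those arrays were Mrpl51 (0.51), Mrpl9 (0.47), Mrpl44 (0.26) and Mrpl10 (0.21). Exercised hearts made up 3 of the 4 high-background arrays, so group and range were partly, not fully, confounded.

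By symbol, the median difference was -0.15 for the Mrpl genes and -0.11 for the Mrps genes. Differences below 0 were seen for 33 of 46 Mrpl and 22 of 27 Mrps genes. An unadjusted p under 0.05 was reached by 8 Mrpl genes (17.4%) and 1 Mrps gene (3.7%), all lower. Among all genes 15.9% reached it in either direction and 10.6% in the lower direction. Whether the 2 subunits differed was not tested. Without exercised replicate 3 the Mrpl and Mrps medians were -0.05 and -0.08. Both sets had a median of -0.03 once the background range was a block, and under median scaling the medians were 0.19 and 0.21. Lists by origin and place placed Mrps30 in the large subunit and left out Mrpl58, Mrps18a and Mrps18b. In them, the 28 large subunit genes with bacterial counterparts had a median of -0.15 (-0.06 with the block) and the 18 found only in mitochondria one of -0.09 (-0.01 with the block). The same classes of the small subunit had medians of -0.19 over 15 genes and -0.09 over 9 genes, and the block turned their order, to -0.0016 and -0.06. None of these classes held a gene past the threshold.

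Mrpl47, the counterpart of bacterial L29 at the polypeptide exit, had the smallest p of the family. Its level was 10.02 at the lowest, 10.35 at the median and 10.57 at the highest in exercised hearts, and 10.50, 10.79 and 11 in sedentary hearts (log2 intensity). The groups overlapped only in the range between 10.50 and 10.57, where sedentary replicates 2 and 3 and exercised replicate 4 lay. The difference was -0.46 (SE 0.12, adjusted p = 0.12 in limma) and -0.34 (SE 0.08) with the background block. A second passing probe of Mrpl47 gave -0.49 (SE 0.22). Mrpl47 passed the threshold with array weights, at -0.38 (adjusted p = 0.033 in limma), and without sedentary replicate 2, at -0.51 (adjusted p = 0.045 in limma). In these fits 5.4% and 2.4% of all genes passed, against 0.183% in the fit reported.

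Mrps33, a small subunit protein found only in mitochondria, ranged from 12.04 through a median of 12.37 to 12.49 in exercised and from 12.45 through 12.62 to 12.70 in sedentary hearts. Exercised replicate 2 was the one exercised array that reached into the sedentary range. The difference was -0.25 (SE 0.09, adjusted p = 0.20 in limma), and the second probe gave -0.38 (SE 0.09). Mrps33 was the other member past the threshold with array weights, where 5.4% of all genes passed. Mrpl42, a large subunit protein, lay between 12.58 and 13.05 with a median of 12.93 in exercised hearts and between 13.02 and 13.23 with a median of 13.12 in sedentary hearts, a difference of -0.27 (SE 0.09). For Mrps33 and Mrpl42 the background block left differences of -0.21 (SE 0.08) and -0.22 (SE 0.09).

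Of the stalk and its base, where translation factors dock, 4 of 5 genes were negative. Mrpl12, the stalk protein itself, was at 12.39, 12.57 and 12.81 (lowest, median and highest) in exercised and 12.70, 12.84 and 12.91 in sedentary hearts. Its 3 lowest values were those of exercised replicates 2, 3 and 6, and the other 3 exercised arrays lay at or above 12.69. The difference was -0.24 (SE 0.09) and -0.15 (SE 0.06) with the block. Mrpl11, a protein of the stalk base, differed by -0.26 (SE 0.12), with 8.97, 9.46 and 9.70 in exercised and 9.54, 9.66 and 9.85 in sedentary hearts. Mrpl10, which anchors the stalk, went the other way, at 0.18 (SE 0.09), with 11.09, 11.17 and 11.47 against 10.92, 10.99 and 11.24. Both probes of Mrpl10 were positive, the second at 0.12 (SE 0.10), and the highest value of each group came from a high-background array.

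At the polypeptide exit 5 of 6 genes were negative, with a median of -0.15 and -0.03 with the block. The sixth was Mrpl45, which tethers the ribosome to the inner membrane in mammals. Mrpl45 had the largest positive difference of the family, 0.39 (SE 0.24), from a probe near the detection limit. It was detected on 9 of 12 arrays, all 6 exercised and 3 sedentary, and was the only member not detected on all arrays. Its levels were 5.22, 5.89 and 6.01 in exercised and 4.72, 5.18 and 6.33 in sedentary hearts, so the highest value was sedentary. Within the high-background arrays its difference was -0.56. The 3 genes left out, Mrpl19, Mrpl32 and Mrps14, had no probe detected on any array, so no gene lay between 0 and 9 arrays.

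Of the central protuberance, the lobe of the large subunit that faces the small one, 7 of 8 genes were negative, with a median of -0.21 and -0.09 with the block. Mrpl27, the counterpart of bacterial L27 near the peptidyl transferase centre, measured 10.33, 10.66 and 10.94 in exercised and 10.79, 11.01 and 11.25 in sedentary hearts. Its difference was -0.37 (SE 0.13), and exercised replicates 2, 3 and 6 lay below all other arrays. Mrpl55, the counterpart of bacterial L31, measured 9.53, 10.22 and 10.87 against 10.10, 10.64 and 11.15, a difference of -0.38 (SE 0.20). Mrpl38 was the positive member at 0.13 (SE 0.09), with 10.90, 11.18 and 11.34 against 10.83, 11.05 and 11.11, and its difference was 0.20 (SE 0.08) with the block and -0.10 (SE 0.17) by its dimmer probe.

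The remaining large negative differences came from genes with a wide spread between arrays. Mrpl20 had the largest, -0.55 (SE 0.24), with 9.05, 9.80 and 10.16 in exercised and 9.45, 10.31 and 10.57 in sedentary hearts. All 4 of its values under 9.5 came from the high-background arrays, and the difference was -0.24 (SE 0.11) with the block. Mrpl52 differed by -0.49 (SE 0.40) from 9.03, 10.46 and 11.02 against 9.48, 11.12 and 11.22, and by 0.01 (SE 0.20) with the block. Mrps21 differed by -0.41 (SE 0.26), with 10.37, 11.64 and 12.03 against 11.34, 12 and 12.19, and by -0.11 (SE 0.16) with the block. Mrps15, the counterpart of bacterial S15, differed by -0.37 (SE 0.19), with 8.77, 9.21 and 9.80 against 9.15, 9.72 and 9.83, and by -0.12 (SE 0.09) with the block. For these 4 genes the groups overlapped widely.

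**Figure D3:**
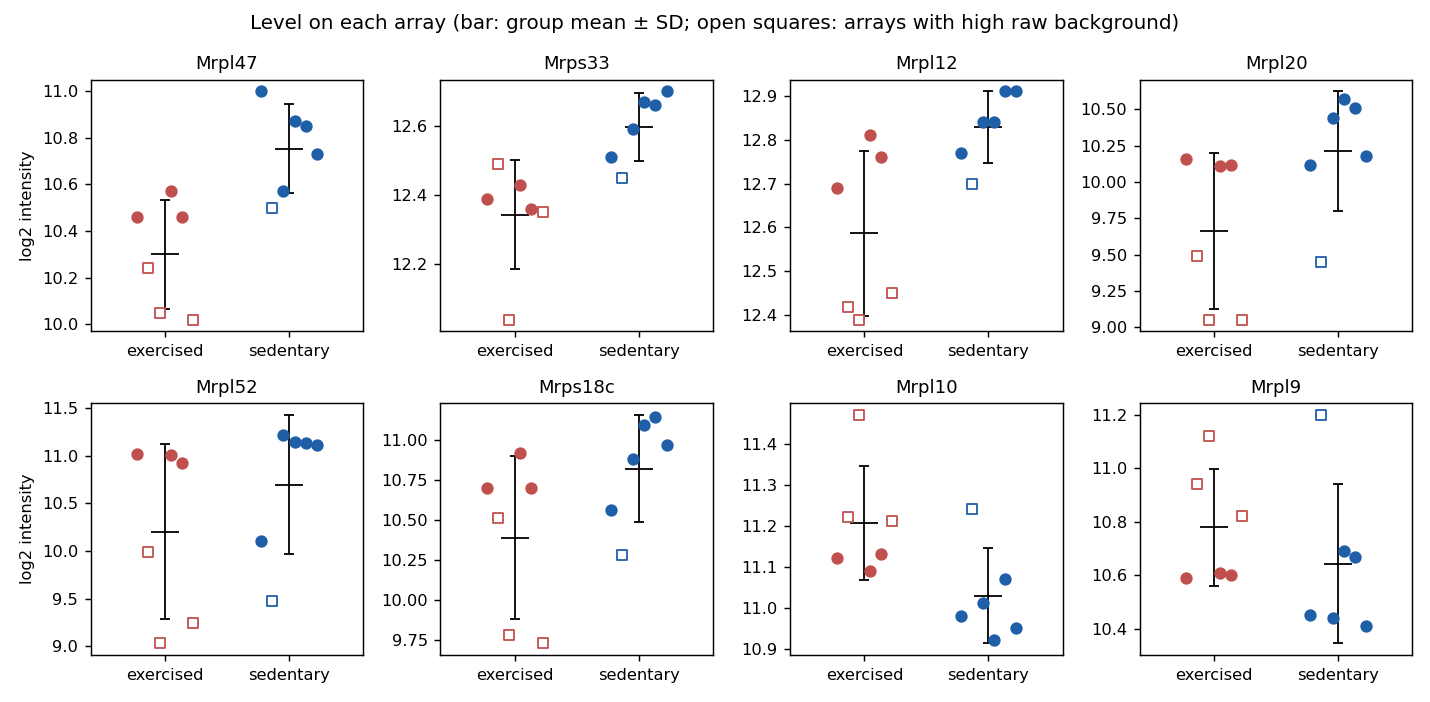
Normalized level (log2 intensity, y axis) of 8 mitochondrial ribosomal protein genes on each exercised and sedentary array, with group means ± SD and open squares for the high-background arrays. The y axes differ between panels. In Mrpl20, Mrpl52 and Mrps18c the open squares include the lowest values, at 9.05, 9.03 and 9.73, and in Mrpl10 and Mrpl9 the highest, at 11.47 and 11.20.

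Mammals have 3 paralogs related to bacterial S18; the products of Mrps18b and Mrps18c are in the small subunit and that of Mrps18a in the large subunit. Mrps18c was at 9.73, 10.60 and 10.92 in exercised and 10.28, 10.92 and 11.14 in sedentary hearts, a difference of -0.43 (SE 0.21). Mrps18b was at 9.99, 10.29 and 10.64 against 10.21, 10.51 and 10.68, a difference of -0.17 (SE 0.12), and a further probe gave 0.02 (SE 0.11). Mrps18a was at 10.63, 11.02 and 11.21 against 10.87, 11.09 and 11.19, a difference of -0.10 (SE 0.11). All 3 were lower on the high-background arrays (limma, adjusted p under 0.05), by shifts of -0.72, -0.39 and -0.32. By this rule 32 of 73 members and 20.0% of all genes were lower. With the block the differences of the 3 paralogs were -0.19, -0.04 and 0.01.

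For 5 further genes the difference was positive. Mrpl51 differed by 0.18 (SE 0.16), with 7.64, 7.90 and 8.27 in exercised and 7.37, 7.59 and 8.35 in sedentary hearts, by 0.01 (SE 0.12) with the block and by -0.44 (SE 0.21) in its dimmest probe. Mrpl35 differed by 0.14 (SE 0.12), with 7.58, 7.71 and 8.02 against 7.46, 7.57 and 7.88, and by 0.06 with the block. Mrpl9 differed by 0.14 (SE 0.14), with 10.59, 10.71 and 11.12 against 10.41, 10.56 and 11.20, and by -0.02 (SE 0.09) with the block. Mrpl2, the counterpart of bacterial L2 at the catalytic centre, differed by 0.11 (SE 0.12), with 10.69, 11.04 and 11.15 against 10.46, 10.99 and 11.07. Mrpl50 differed by 0.09 (SE 0.11), with 11.84, 11.94 and 12.45 against 11.69, 12.01 and 12.03, and by 0.04 with the block. In all 5 genes the groups overlapped.

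The 3 genes named above for human cardiomyopathy were in the panel chosen for known roles. Mrpl3, at the catalytic centre, had a mean of 10.86 ± 0.10 with exercise and 10.87 ± 0.08 without (SD, n = 6), a difference of -0.0037 (SE 0.07). Mrpl3's 2 dimmer probes gave 0.32 (SE 0.17) and 0.21 (SE 0.13). Mrps22, a small subunit protein found only in mitochondria, was at 9.61 ± 0.08 and 9.66 ± 0.10 (SD, n = 6), a difference of -0.05 (SE 0.08). Mrpl44 was at 9.82 ± 0.11 and 9.77 ± 0.19 (SD, n = 6), a difference of 0.05 (SE 0.10).

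The panel chosen for known roles held further Mrps genes. Mrps12, the counterpart of the decoding protein S12, had a mean of 11.51 ± 0.27 with exercise and 11.55 ± 0.15 without (SD, n = 6), a difference of -0.04 (SE 0.12). Mrps7 was at 11.25 ± 0.07 and 11.28 ± 0.10 (SD, n = 6), and Mrps5 at 8.18 ± 0.22 and 8.13 ± 0.17 (SD, n = 6). Their differences were -0.03 (SE 0.07) and 0.05 (SE 0.12). Mrps34, whose levels were 11.24, 11.54 and 11.67 in exercised and 11.57, 11.66 and 11.70 in sedentary hearts, differed by -0.14 (SE 0.08). Mrps30, which carries a small subunit name but sits in the large subunit, differed by -0.02 (SE 0.11). Over the 73 genes the pooled SD within groups ran from 0.07 for Mrpl13 to 0.83 for Mrpl52, with a median of 0.20.

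Several probes allowed a check within genes. Of 26 members with more than 1 passing probe, 8 had probes of both signs. Mrpl15, with 7 passing probes, ranged from -0.17 to 0.19, and both ends came from dim probes with group means from 5.52 to 6.10. Probes agreed in sign and size for Mrpl33, at -0.24 (SE 0.17) and -0.31 (SE 0.19), and for Mrps26, at -0.19 (SE 0.16) and -0.28 (SE 0.14). Other genes had probes of the same sign but unlike size. Examples were Mrpl18, at -0.07 (SE 0.08) and -0.56 (SE 0.29), and Mrpl13, at -0.17 (SE 0.07) and -0.47 (SE 0.23).

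Cytosolic ribosomal proteins, which build the ribosome outside mitochondria, were read beside the mitochondrial set. The 50 cytosolic genes had a median of -0.26, with 48 negative and 0 past the threshold. On the high-background arrays 31 of the 50 were lower (62%, limma, adjusted p under 0.05), against 43.8% of the members and 20.0% of all genes. The cytosolic median was -0.12 with the block and -0.01 under median scaling. The mean deviation of the cytosolic genes ran from -0.57 to 0.34 over the 12 arrays, against -0.27 to 0.14 for the mitochondrial genes. The 65 respiratory chain genes, which include the nuclear partners of the subunits that the mitochondrial ribosome makes, had a median of -0.06 with 48 negative and 0 past the threshold, 0.00 with the block and 0.18 under median scaling. Without exercised replicate 3 that median was 0.0038, and without any 1 of exercised replicates 2 and 4 and sedentary replicates 1 and 2 it was between -0.10 and -0.09. The difference between these families was not tested.

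Genes that work with the mitochondrial ribosome were taken from fixed lists, and of 68 measured none passed the threshold, with 47 positive and a median of 0.06. At an unadjusted p under 0.05, 4 were higher and 1 was lower, against 5.29% and 10.6% of all genes. Of 12 translation factors 10 were positive; their median was 0.11, and 0.03 with the block. Gfm1, the elongation factor that moves the ribosome along, differed by 0.23 (SE 0.12) and Tufm, which delivers charged tRNAs, by 0.11 (SE 0.09). Of 16 genes for mitochondrial tRNA synthetases or for subunits of the tRNA amidotransferase (Qrsl1 and Gatc), 13 were positive, with a median of 0.05. Fars2, the phenylalanine enzyme, differed by 0.23 (SE 0.09). Assembly factors were positive in 13 of 18, with a median of 0.08, and their smallest p was that of Noa1, at 0.16 (SE 0.09).

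Of 11 mitochondrial transcription and RNA genes 5 were positive, with a median of -0.01, and of 0.09 with the block. Polrmt, the mitochondrial RNA polymerase, had a mean of 10.05 ± 0.05 with exercise and 9.84 ± 0.10 without (SD, n = 6). All 6 exercised arrays of Polrmt lay above all 6 sedentary arrays, as 1.12% of all genes did in either direction, and the difference was 0.21 (SE 0.07, adjusted p = 0.22 in limma) and 0.20 with the block. Tfb2m, its initiation factor, differed by 0.28 (SE 0.11). Slirp, which with Lrpprc stabilizes mitochondrial messenger RNAs, differed by -0.43 (SE 0.30), and by -0.16 (SE 0.25) with the block. Lrpprc went the other way, at 0.27 (SE 0.13), and 0.19 (SE 0.12) with the block. Of 7 nuclear regulators, Ppargc1a, a coactivator of mitochondrial genes, differed by 0.51 (SE 0.21) and by 0.26 with the block. Nrf1 and Gabpa, which belong to the factors whose site cores were searched above, differed by -0.12 (SE 0.12) and 0.28 (SE 0.18). Among mitochondrial ribosomal proteins with other names, Chchd1 differed by -0.23 (SE 0.10) and Dap3 by 0.03 (SE 0.08).

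**Figure D4:**
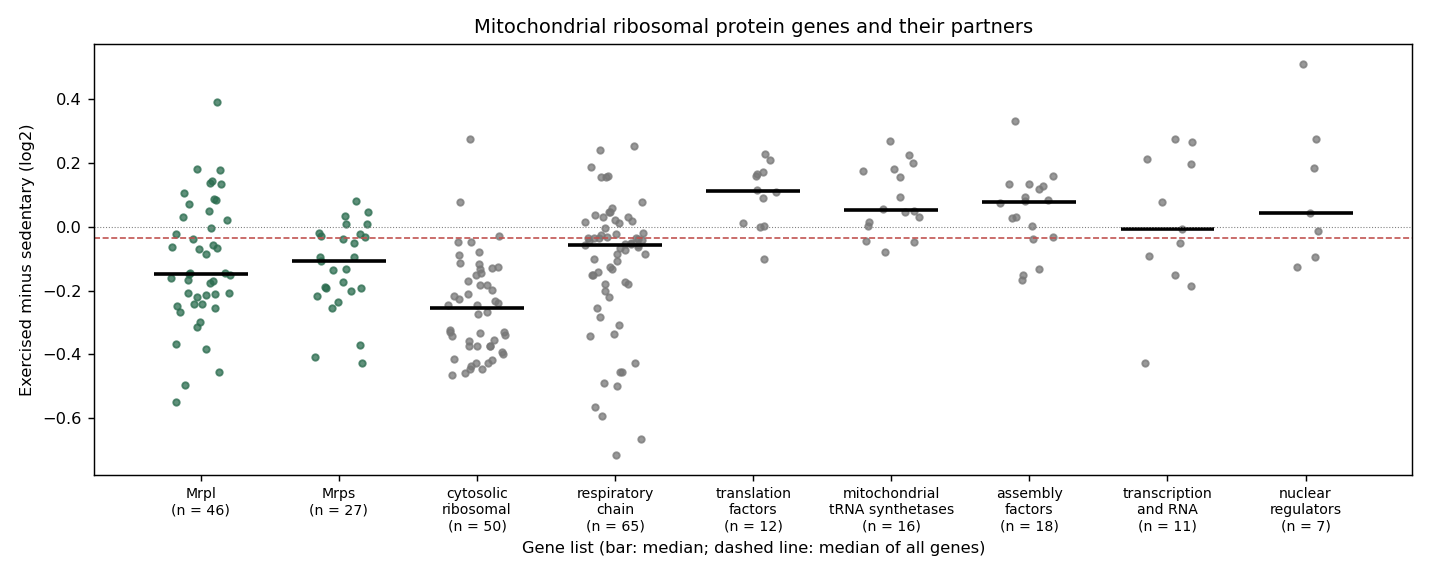
Log2 difference between exercised and sedentary hearts (y axis) for each gene of 9 lists (x axis), with a bar at each list's median and a dashed line at the median of all genes, -0.04. Medians are -0.15 for Mrpl and -0.11 for Mrps genes, -0.26 for cytosolic ribosomal genes and 0.11 for translation factors.

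Markers of the tissue and of other cells were read on the same arrays. Cardiomyocyte markers were high and even, with list means of 14.24 to 14.47 in exercised and 14.21 to 14.43 in sedentary hearts (4 of 5 measured). Hepatocyte markers, 8 of 10 measured (Alb and Fgb were not) and all positive, had list means of 10.65, 12.21 and 13.01 in exercised replicates 1, 5 and 6, of 6.83 to 7.91 in the other exercised arrays and of 6.40 to 8.46 in sedentary arrays. Of those 3 arrays rich in liver transcripts, 2 had members' mean deviations above 0 and the third below. Without them the members' median was -0.16 with 21 of 73 positive, and with the liver mean as a covariate it was -0.14. Macrophage list means were 8.31 to 8.81 in exercised and 8.55 to 9.42 in sedentary hearts (4 of 5 measured), and those of endothelial markers 9.54 to 9.94 and 9.84 to 10.21 (4 of 5 measured). Fibroblast list means were 9.66 to 9.98 and 9.68 to 10.35 (5 of 5 measured). Skeletal muscle markers (2 of 5 measured) had list means of 12.84 to 13.28 and 12.85 to 13.09. Of these, Ckm was at 0.24 (SE 0.08) and Acta1 at -0.0035 (SE 0.13). Red cell markers (2 of 3 measured) had list means of 12.02 to 12.64 and 11.94 to 13.23, with Hba-a1 at -0.18 (SE 0.08). Brown adipocyte markers (2 of 3 measured, Ucp1 not) had list means of 7.65 to 9.19 and 7.74 to 8.96. Smooth muscle list means were 8.75 to 9.14 and 9.24 to 9.71 (3 of 3 measured), where Acta2 was called, at -0.70 (adjusted p = 0.040 in limma). The part of these other cell types in the members' differences was not tested.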

How the data were processed

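Total RNA of 12 whole-heart samples was hybridised to Illumina beadchips, 6 exercised and 6 sedentary per the labels. The authors deposited bead intensity per probe and array without normalization, per the file headers, each with its detection p-value. A second deposited table, used as an alternative, held processed values that behave as log2; lumi is named in the submitters' processing notes, and how it was applied is not given.

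Background was corrected with limma's nec from the detection p-values (offset 16), followed by quantile normalization and log2. Of 45281 probes, 17098 were detected at p under 0.01 on at least 6 of 12 arrays; 14822 of these had 1 symbol. Exercised minus sedentary was fitted over 9843 genes with limma 3.58.1 in R 4.3.3 (lmFit, eBayes with a trend, Benjamini-Hochberg over all genes, threshold 0.05). The arrays were divided at a raw 5th percentile of 75. By gene ID, 73 of 73 members matched RefSeq and 0 symbols differed. Detected probes per array were 16619 to 18708, and the number of arrays limits the precision.

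Members, lists and settings were chosen with earlier results of these data known. The assignment of 7 genes to the lists by origin or position was corrected after values were seen. Named members were those past the threshold, the 8 largest differences in each direction, non-overlapping genes, a panel of 17 by role, and the genes of the promoters shown; others named were chosen after their values were seen. Same-numbered samples had correlations of deviations from group means of -0.29 to 0.56, so numbers were not taken to pair samples.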

Additional observations from a re-analysis of the deposited data

Results flagged for a closer look

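In 6 of 62 sets of values, 1 array lay far outside the other 5. By chance about 1 in 20, or 3.1, would hold such an array. Each set was a named gene, or the mean of all members, of the Mrpl or of the Mrps genes, in 1 group. All 6 flagged sets were of single genes. In exercised replicate 3, Mrpl10 was at 11.47 and Mrpl50 at 12.45, above the other exercised arrays, and Mrps12 was at 10.97, below them. In sedentary replicate 2, Mrpl44 was at 10.11 and Mrpl9 at 11.20, above the other sedentary arrays, and Mrps15 was at 9.15, below them. Both arrays belong to the 4 with high raw background, and the part of that background in these values was not tested.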

How the results depend on the processing

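No member passed the threshold in the fit reported, where 9 had an unadjusted p under 0.05, nor in 26 of 28 alternatives. The exceptions were array weights, with 2 members (Mrpl47 and Mrps33), 533 genes in all and 1 partner gene (Polrmt), and leaving out sedentary replicate 2. Leaving out 1 array at a time gave 0 to 1 members and 1 to 236 genes in all, the highest without sedentary replicate 2; the cause was not tested. Median scaling moved the median of all genes to 0.26 and reversed the members' median to 0.19, with 64 positive, the Mrpl and Mrps medians to 0.19 and 0.21 and the respiratory chain median to 0.18, while the members stayed 0.07 below all genes. On the low-background arrays alone the medians of the members, the Mrpl, the Mrps and the respiratory chain genes all turned positive, at 0.025, 0.028, 0.024 and 0.026, with 44 members positive. Within the high-background arrays 10 were positive, and with the background block and the liver covariate together, a fit chosen after seeing the data, 31 were. The 18 genes called in all became 0 with median scaling and within the high-background arrays, where 432 and 105 had an unadjusted p under 0.05. They became 9 with cyclic loess and 1 without a filter. With a replicate block, which left every member's difference as it was, 3 genes and 0 members were called. The replicate numbers were not taken to pair the samples. The genes called in all were 36 once background range was a block and 10 on the low-background arrays alone. They were 1 with the liver covariate, 1 without the 3 arrays rich in liver transcripts and 3 with background and liver together.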
